A study of Mus musculus with 6 samples.

Results

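The 129 genes described here are the long intergenic non-coding RNA (lincRNA) genes on autosomes that were expressed in freshly isolated mouse muscle stem cells (MuSCs). They were chosen as the genes of lincRNA biotype outside the X and Y chromosomes whose value averaged 30 or more over all 6 RNA-seq libraries, leaving out Malat1, Neat1, Meg3, Rian, Mirg and H19 by name. The table held 22706 genes, of which 895 were lincRNA genes and 876 of these lay outside X and Y. The mean of 30 was reached by 134, and 5 of the genes left out by name were among them. A value is a normalised read count per gene, the number of reads assigned to its exons divided by a size factor of its library.

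MuSCs were sorted as Integrin-a7+/CD34+ cells negative for Sca1, CD45 and CD31, or by a fluorescent reporter, and rRNA-depleted total RNA was sequenced. There were 3 groups of 2 libraries, all labelled C57BL/6: wild type (control), mdx, and mdx with a Sirt6 knockout in the skeletal muscle lineage (Sirt6mKO/mdx). The mdx mouse carries a loss-of-function mutation of dystrophin, was obtained as C57BL/10ScSn-Dmdmdx/J, and has dystrophic, repeatedly regenerating muscle. In Sirt6mKO/mdx mice a Cre recombinase driven from Pax7 removes floxed exons of Sirt6, which encodes a NAD-dependent histone deacetylase, and a ROSA26-YFP allele can mark the recombined cells. The study describes adult male mice, and the labels give neither age nor sex nor how many mice were pooled in a library. Libraries of a group are biological replicates by the study's account, and the labels do not name the mice.

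LincRNAs are transcribed by RNA polymerase II from between coding genes, are usually spliced, and encode no known protein. Several act as carriers: snoRNAs, which guide the chemical modification of ribosomal RNA, are cut from the introns of Snhg (small nucleolar RNA host gene) transcripts, and microRNAs are cut from hairpins in primary transcripts. Others start next to a coding gene and are transcribed away from it, or regulate neighbouring genes. In MuSCs, which are quiescent in resting muscle and activated by injury and by the isolation itself, most of the genes described here have no known role.

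Libraries differed in ways that bear on these genes. Xist was at 16772 and 12950 in control libraries, 7 and 8 in those of mdx, and 33 and 34 in those of Sirt6mKO/mdx, whereas Ddx3y, on the Y chromosome, was at 3 and 8, 1024 and 1055, and 1555 and 1767. The control libraries thus go against the male sex that the study states, and in both comparisons with control sex and genotype cannot be told apart. Sirt6 was at 41 and 32 in control libraries, 33 and 40 in those of mdx, and 37 and 30 in those of Sirt6mKO/mdx. The groups overlapped, and its log2 fold change in Sirt6mKO/mdx was -0.12 against either group. Neither value passed (limma adjusted p = 0.912 against mdx and 0.922 against control). A value per gene does not show the loss of the floxed exons alone. Control replicate 1 was above control replicate 2 in 109 of the 129 members (84.5%), beside 51.2% of all 15915 tested genes, and the median log2 difference between both was 0.61 over the members. The corresponding medians were -0.10 in mdx and 0.02 in Sirt6mKO/mdx. Estimated from the spacing of low values, the libraries held 4397632 and 7216692 reads for control, 9745218 and 7215821 for mdx, and 6218689 and 4770337 for Sirt6mKO/mdx, so that 1 read was worth between 0.655 and 1.86 units. The 22 immediate early genes checked, which are transcribed within minutes of a stimulus such as tissue dissociation, summed to 178159 and more in control, to between 24671 and 27567 in mdx, and to between 133421 and 139657 in Sirt6mKO/mdx. MuSC markers were above 0 in every library (10 of 10 genes, summed levels from 19773 to 27599). Fibro-adipogenic markers summed to between 6393 and 8176 in control libraries, 6194 and 9604 in those of mdx, and 4422 and 5872 in those of Sirt6mKO/mdx. Myofibre genes summed to between 6611 and 8653, 1435 and 4706, and 4749 and 10302. Both mdx libraries stood apart in further marker lists. Endothelial markers (6 of 6 genes, Emcn and Kdr at 0 in at least 1 library) summed to 244 and 177 for control, 52 and 77 for mdx, and 118 and 172 for Sirt6mKO/mdx. Smooth muscle and pericyte markers summed to 1106 and 1939, 3168 and 2563, and 1439 and 1859, and the 10 proliferation genes to 1049 and 894, 1429 and 2012, and 795 and 1275. Leukocyte markers (6 of 7 genes listed, Ptprc, Lyz2, C1qa and Cd52 at 0 in at least 1 library) summed to 104 and 129, 107 and 79, and 187 and 174, so that both Sirt6mKO/mdx libraries were highest. Erythroid markers (5 genes, Hbb-bt and Hba-a2 at 0 in at least 1 library) summed to 56 and 19, 7 and 14, and 39 and 91. The part of these lists in the members' results was not tested.

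The members were modest in level and mostly unnamed. Of the 129 symbols, 71 are Gm numbers and 44 end in Rik. The median of the members' means was 56.3, and 33 members had a mean of 100 or more. In the GENCODE M21 annotation of GRCm38, 120 members could be matched with their exons, which spanned a median of 2794 bases. That annotation calls 75 of them lincRNA and 28 antisense, and it places 60 members over a coding gene on the other strand only, 14 over or inside a coding gene on the same strand, and 55 over none. Whether counting used the strand is not given in the sources used here, so reads from overlapping genes may not have been told apart.

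A single member, Gm26924, exceeded all the others together in every library. Gm26924 (chromosome 17, 39846958-39848788) had values of 537962 and 98221 in control libraries, 503800 and 612510 in those of mdx, and 1158873 and 484803 in those of Sirt6mKO/mdx, which is between 1.77% and 12.04% of all values of a library. All 3 groups overlapped, and no comparison of this gene passed the test (limma, adjusted p from 0.759 to 0.945). In the annotation the exons of Gm26924 overlap those of an rRNA gene and of AY036118, with at most 1822 of its 1831 bases shared with either. The library preparation depleted rRNA. Without Gm26924, the members summed to 17677 and 10872 in control libraries, 9963 and 9152 in those of mdx, and 15077 and 14811 in those of Sirt6mKO/mdx. On the deposited scaling both mdx libraries were lowest, whereas as a percent of all values of a library mdx replicate 2 (0.163%) was above Sirt6mKO/mdx replicate 1 (0.157%). Per kb of exon, the next members by mean level were Snhg7 at 719, 2410004N09Rik (Epb41l4aos) at 341, Gm14616 at 324 and Snhg5 at 274 units per kb. The exons of Snhg7 are those of its gene ID, which GENCODE M21 assigns to the snoRNA Snora43, with 139 bases. Its value per kb and its place in this order may thus not be those of Snhg7.

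**Figure D1:**
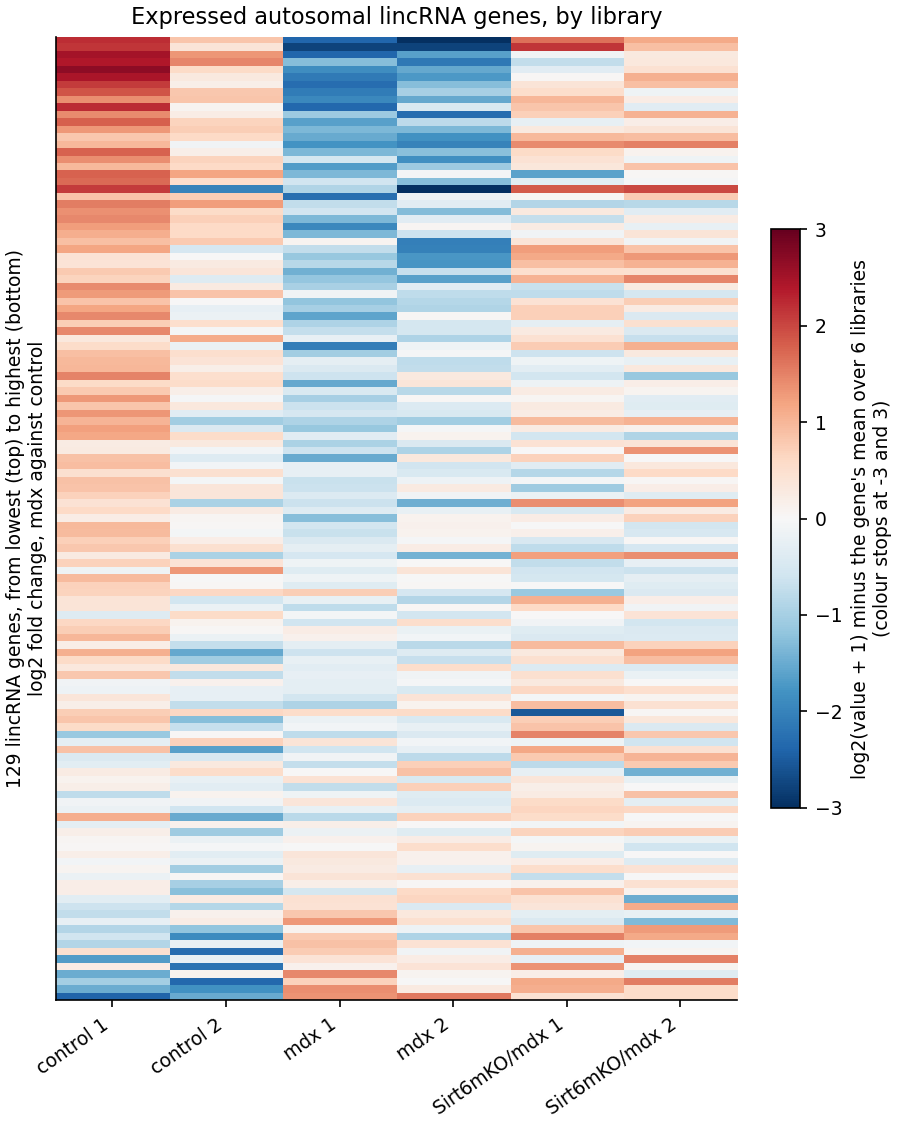
Heat map of the 129 lincRNA members (rows, ordered from the lowest to the highest log2 fold change in mdx against control) in the 6 libraries (columns); colour is log2(value + 1) minus the gene's mean over the libraries. Of the members, 40 had both mdx libraries below the other 4 and 6 had both above.

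The comparison of mdx with control asks which transcripts differ in MuSCs of dystrophic muscle. Among the members, 34 fell in mdx, 5 rose and 90 did not pass the test. Calls rest on limma over all 15915 genes with a mean of at least 5, with a Benjamini-Hochberg adjusted p of at most 0.05 and a change of at least 2-fold. Of all tested genes 7.34% fell and 6.89% rose, and of the 11047 genes with a mean of 30 or more 9.44% fell and 8.97% rose. The members' median log2 fold change was -0.73, beside 0.0007 over all tested genes, and 96 members had a negative value. In bulk samples, fewer cells of a type and less RNA per cell cannot be told apart. The members' count was smallest in the fits without control replicate 1 or mdx replicate 1, where fewer of all tested genes were called as well. Since the members were chosen on a mean over all groups, 48 had an mdx mean under 30 and were included only through the other libraries, and 23 of the 34 that fell are among these. Of the 66 members with a mean of 30 or more in each group, 10 fell and 4 rose, with a median of -0.26. That limit leaves out members low in mdx. Of the 33 members with a mean of 100 or more over all libraries, 8 fell (24.2%) and 4 rose (12.1%), with a median of -0.39. Of these 8, 0 had an mdx mean under 30. Of the 22 immediate early genes, 21 fell in the same comparison, and their part in the members' result was not tested.

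Between the libraries labelled Sirt6mKO/mdx and mdx, 23 members rose, 1 fell and 105 did not pass. This comparison asks what differs in dystrophic MuSCs when Sirt6 is knocked out in the muscle lineage. In both groups Xist was low and Ddx3y high. Of all tested genes 5.62% rose and 2.54% fell, and of the genes with a mean of 30 or more 7.54% rose and 3.6% fell. The median log2 fold change was 0.59 for the members and 0.02 for all tested genes when the deposited scaling was kept, but scaling each library to an equal sum moved the median of all genes to -0.58 and that of the members to -0.01. With equal sums 16 members rose and 9 fell, beside 479 and 2932 of all 15915 tested genes. The members' count was smaller without any 1 of the 4 libraries compared, and so was the count over all tested genes. Both were smallest without a Sirt6mKO/mdx library. A mean of 30 or more in each group was held by 66 members, of which 5 rose and 0 fell in limma, where 16 were higher and 2 lower at an unadjusted p under 0.05. Their share that rose was 7.58%. That of all genes with a mean of 30 or more, a looser limit without a floor in mdx, was 7.54%. The median of these 66 members was 0.36, and with equal sums 2 rose and 5 fell. Of the 23 that rose, 18 had an mdx mean under 30. The immediate early genes rose in 21 of 22 cases, and their part in this result was not tested either.

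Against control, 9 members rose and 6 fell in Sirt6mKO/mdx, and 114 did not pass. All tested genes rose in 5.19% and fell in 2.68% of cases, and those with a mean of 30 or more in 6.65% and 3.63%. The median was -0.20 for the members and 0.01 for all genes. With libraries scaled to equal sums, 5 members rose and 29 fell, beside 455 and 2693 of all 15915 tested genes. The median of all genes was then -0.58 and that of the members -0.79. Without control replicate 1, 14 rose and 3 fell, and without control replicate 2, 4 and 4. Leaving out either Sirt6mKO/mdx library gave the fewest calls, among the members as over all tested genes. Because each group enters 2 of the 3 comparisons, the values of the comparisons are set side by side here and no overlap between them is counted. In the values themselves, 40 members (31%) had both mdx libraries below the other 4, beside 15.4% of all tested genes and 16.6% of those with a mean of 30 or more. For both mdx libraries above the other 4, the shares were 4.65%, 14.8% and 18.4%. A mean of 30 or more in each group, a limit that leaves out members low in mdx, was held by 66 members. Of these, 11 (16.7%) had both mdx libraries below the other 4, near the 15.5% of all 9731 genes that meet the same limit. Both mdx libraries were above the other 4 in 6.06% against 18.9%.

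Single members differed in how far their calls rested on 1 library. Where a fit leaves a group with 1 library, that library is assumed to vary like the other groups. Of the 39 calls in mdx against control, 10 passed in each of the 6 fits that left out 1 library, namely 1200007C13Rik, A330023F24Rik, 4732419C18Rik, Gm26835, Gm17275, Mir17hg, Gm6225, Gm13833, 0610007N19Rik and Gm27019. In Sirt6mKO/mdx against mdx 2 of 24 did so, 1200007C13Rik and Mir17hg, and in Sirt6mKO/mdx against control 0 of 15. The sign changed in 0 of these calls in the limma fits that left out a library.

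**Figure D2:**
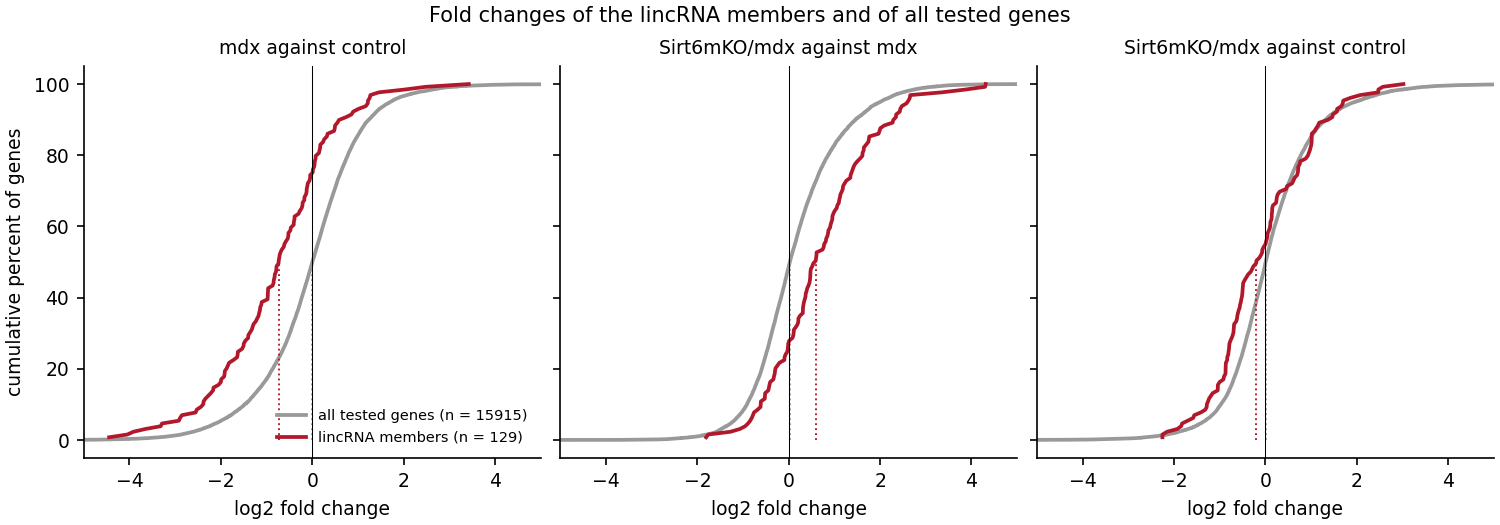
Cumulative percent of genes (y axis) against log2 fold change (x axis) for the 129 lincRNA members (red) and all 15915 tested genes (grey) in the 3 comparisons; dotted lines mark the medians. The members' medians were -0.73, 0.59 and -0.20; with libraries scaled to equal sums the second was -0.01, against -0.58 for all genes.

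Among the snoRNA hosts, calls against control in Sirt6mKO/mdx were all rises. Of the 9 listed hosts among the members, 5 rose and 0 fell in Sirt6mKO/mdx against control by limma, with 5 higher and 0 lower at an unadjusted p under 0.05 and a median log2 fold change of 1.08. In Sirt6mKO/mdx against mdx 2 rose and 0 fell (5 higher and 0 lower at an unadjusted p under 0.05, median 0.93), and in mdx against control 2 rose and 0 fell (2 higher, 1 lower, median -0.17). The shares that rose were 55.6%, 22.2% and 22.2%, beside 6.98%, 17.8% and 3.88% of all members and 5.19%, 5.62% and 6.89% of all tested genes. With libraries scaled to equal sums the first median was 0.47 and the second 0.31, against -0.58 for all genes, and 2 hosts rose and 0 fell in the first while 0 rose and 1 fell in the second, the latter 0610007N19Rik. The calls of Snhg1 and Snhg12 against mdx and those of Snhg1, Snhg5 and Snhg6 against control ended under that scaling, as did that of 2410004N09Rik in mdx. The annotation places a snoRNA gene, or one of its scaRNA type, inside 12 members. On the deposited scaling 5 of these rose and 0 fell in Sirt6mKO/mdx against control (41.7% rose), and 2 and 0 against mdx (16.7%). In mdx against control 2 rose (16.7%) and 1 fell, Gm26945. With equal sums 2 rose and 1 fell against control, and 0 and 1 against mdx.

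Snhg1 (chromosome 19, 8723496-8726442), whose spliced RNA is a known substrate of nonsense-mediated decay, was at 829 and 443 in control libraries, 588 and 413 in those of mdx, and 1399 and 1173 in those of Sirt6mKO/mdx. Both Sirt6mKO/mdx libraries lay above the other 4, and control and mdx overlapped. Its log2 fold change was 1.38 ± 0.30 (SE, n = 2 libraries per group; limma adjusted p = 0.0113) against mdx and 1.08 ± 0.30 (limma adjusted p = 0.0371) against control. Snhg5 had values of 491 and 208 in control libraries, 388 and 337 in those of mdx, and 687 and 737 in those of Sirt6mKO/mdx, and rose by 1.15 ± 0.33 on the log2 scale against control (limma adjusted p = 0.0399). Snhg6 was at 100 and 86 in control libraries, 212 and 114 in those of mdx, and 200 and 339 in those of Sirt6mKO/mdx, and rose by 1.48 ± 0.36 against control (limma adjusted p = 0.0186). Snhg12 was at 420 and 325 in control libraries, 224 and 183 in those of mdx, and 351 and 877 in those of Sirt6mKO/mdx, where replicate 2 stood apart. Its rise against mdx was 1.45 ± 0.35 (limma adjusted p = 0.0193), and 0.79 without Sirt6mKO/mdx replicate 2. That call was also lost without either mdx library. Without control replicate 2, Snhg1, Snhg5 and Snhg6 did not pass against control, and the log2 fold changes of the former pair were 0.63 and 0.53, while Snhg5 was at 1.77 without control replicate 1. Over the fits without 1 library, the value of Snhg6 lay between 1.10 and 1.86. Leaving out either Sirt6mKO/mdx library ended the calls of Snhg1, Snhg5 and Snhg6 against control, and either mdx library those of Snhg1 and Snhg5. The call of Snhg1 against mdx was lost without mdx replicate 2 or either Sirt6mKO/mdx library.

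Of the listed hosts, 2410004N09Rik and 0610007N19Rik rose in mdx. 2410004N09Rik, named Epb41l4aos in GENCODE M21, had values of 66 and 54 in control libraries, 133 and 111 in those of mdx, and 218 and 298 in those of Sirt6mKO/mdx. The groups did not overlap, and the log2 fold change was 1.01 ± 0.32 for mdx and 2.08 ± 0.32 for Sirt6mKO/mdx against control (limma adjusted p = 0.0435 and 0.00096). The former call was lost without any 1 of the 6 libraries, with values between 0.87 and 1.16, and the latter without Sirt6mKO/mdx replicate 2. 0610007N19Rik (chromosome 15, 32240569-32244662), named Snhg18 in GENCODE M21, was at 6 and 12 in control libraries, 94 and 110 in those of mdx, and 50 and 54 in those of Sirt6mKO/mdx. Among the members this was the largest rise in mdx, 3.43 ± 0.52 (limma adjusted p = 0.0004). Against control, Sirt6mKO/mdx had 2.47 ± 0.52 (limma adjusted p = 0.00827), a call lost without either Sirt6mKO/mdx library (2.03 as the lowest value). The remaining listed hosts, Snhg4, Snhg7 and 2810008D09Rik (Snhg20), did not pass in any comparison, with log2 fold changes between -0.82 and 0.93.

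**Figure D3:**
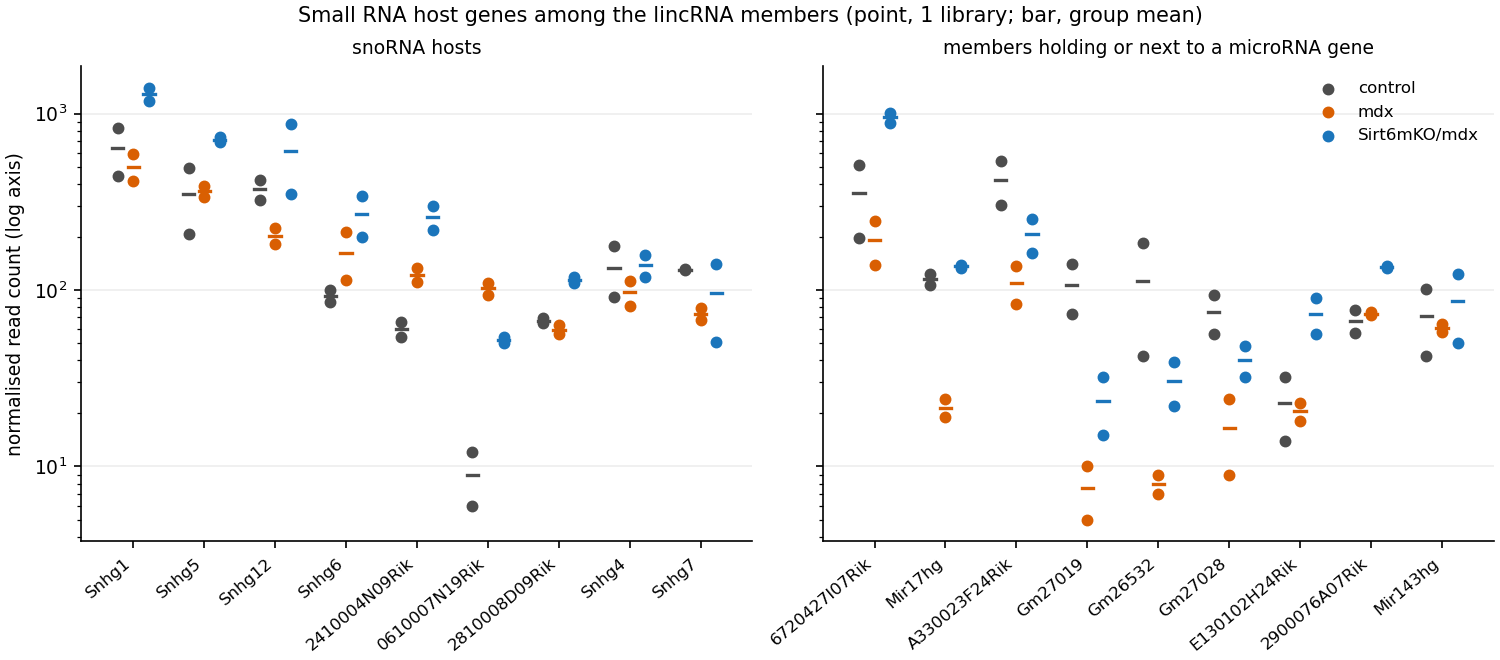
Normalised read counts (y axis, log scale) of 9 snoRNA hosts (left) and 9 members holding or next to a microRNA gene (right) in control (grey), mdx (orange) and Sirt6mKO/mdx (blue); a point is 1 library and a bar the mean of 2. Mir17hg was at 24 and 19 in mdx and at 107 or more in the other libraries, and Snhg1 was at 1173 or more in Sirt6mKO/mdx and at 829 or less elsewhere.

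MicroRNA genes lay inside 13 members or within 5 kb of them on the same strand. This grouping was made after the values were seen. In mdx against control 5 of the 13 fell and 0 rose by limma (5 lower and 0 higher at an unadjusted p under 0.05, median -0.57). That is 38.5%, beside 26.4% of all members and 7.34% of all tested genes, and 4 of the 5 had an mdx mean under 30 and were included only through the other libraries. In Sirt6mKO/mdx against mdx 2 rose and 0 fell (9 higher and 0 lower at an unadjusted p under 0.05, median 0.93, or 0.31 with libraries scaled to equal sums), and 15.4% rose beside 17.8% of all members and 5.62% of all tested genes. A microRNA represses messenger RNAs that pair with its seed, bases 2 to 8 of the mature strand. The mature strands of the members that passed in a comparison are shown because each seed names the family of targets that the locus can address. The seeds are in capitals, and the sequences are those of RefSeq (GRCm38.p6).

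Mir17hg (chromosome 14, 115042879-115046727, plus strand) is the primary transcript of the miR-17-92 cluster, known for promoting cell growth, and its 6 hairpins carry 4 seeds among the strands shown.
miR-17-5p: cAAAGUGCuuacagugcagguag
miR-20a-5p: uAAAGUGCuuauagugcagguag
miR-18a-5p: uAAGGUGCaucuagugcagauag
miR-19a-3p: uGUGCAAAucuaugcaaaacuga
miR-19b-3p: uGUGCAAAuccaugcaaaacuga
miR-92a-3p: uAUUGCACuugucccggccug

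The miR-29 family, known for repressing collagen and other matrix genes, shares 1 seed. It lies at 2 loci, directly next to Gm27019 (chromosome 6, 31063092-31063495, minus strand) and in A330023F24Rik (chromosome 1, 194976375-195037908, plus strand).
miR-29a-3p: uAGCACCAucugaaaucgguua
miR-29b-3p: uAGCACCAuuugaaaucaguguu
miR-29c-3p: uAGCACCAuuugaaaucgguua

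Gm26532 (chromosome 8, 84208920-84209609, plus strand) lies directly downstream of the miR-23a, miR-27a and miR-24-2 hairpins, which have unlike seeds, and Gm27028 (chromosome 1, 23291537-23291935, plus strand) holds miR-30c-2.
miR-23a-3p: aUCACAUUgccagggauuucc
miR-27a-3p: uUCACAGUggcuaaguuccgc
miR-24-3p: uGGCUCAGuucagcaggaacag
miR-30c-5p: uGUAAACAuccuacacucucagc

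6720427I07Rik spans the let-7a-1, let-7f-1 and let-7d hairpins in GENCODE M21. The let-7 family, which accumulates as cells differentiate, shares 1 seed.
let-7a-5p: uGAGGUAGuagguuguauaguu
let-7f-5p: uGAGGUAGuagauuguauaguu
let-7d-5p: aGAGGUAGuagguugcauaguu

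Mir17hg had values of 124 and 107 in control libraries, 24 and 19 in those of mdx, and 139 and 134 in those of Sirt6mKO/mdx, so both mdx libraries lay far below the other 4. It fell by 2.38 ± 0.38 on the log2 scale in mdx (limma adjusted p = 0.00065), rose by 2.62 ± 0.38 in Sirt6mKO/mdx against mdx (limma adjusted p = 0.00058), and differed by 0.24 between Sirt6mKO/mdx and control (limma adjusted p = 0.751). Myc, a known activator of this cluster, was at 2072 and 1950, 314 and 246, and 1288 and 1385.

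Next to the miR-29a and miR-29b-1 hairpins, Gm27019 was at 140 and 73 in control libraries, 10 and 5 in those of mdx, and 15 and 32 in those of Sirt6mKO/mdx. The fall in mdx was -3.65 ± 0.63 (limma adjusted p = 0.00123), and the value of Sirt6mKO/mdx against control was -2.15 ± 0.63 (limma adjusted p = 0.0468), a call lost without any 1 of the libraries (-2.67 to -1.63). The other miR-29 locus, A330023F24Rik, whose exons overlap those of Cd46 on the other strand, was at 539 and 305, 137 and 83, and 252 and 162, and fell by 1.92 in mdx (SE 0.35; limma adjusted p = 0.0018). Gm26532 was at 184 and 42, 7 and 9, and 22 and 39, and its change in mdx was -3.32 ± 0.68 (limma adjusted p = 0.00408). Control replicate 1 was far above replicate 2 for Gm26532, and its call was lost without control replicate 1 (-2.27 as the smallest change) or mdx replicate 1. Gm27028 was at 94 and 56, 24 and 9, and 48 and 32, with a change of -2.22 ± 0.58 in mdx (limma adjusted p = 0.0165) that was not called without control replicate 1 or mdx replicate 2.

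The let-7 transcript 6720427I07Rik was the only one of these to rise against control with the deposited scaling. With libraries scaled to equal sums its value against control was 0.97 and not called. Of the 13 members 0 rose and 5 fell there, in place of 1 and 1, beside 455 and 2693 of all 15915 tested genes. Its values were 514 and 197 in control libraries, 246 and 139 in those of mdx, and 1012 and 888 in those of Sirt6mKO/mdx. Both Sirt6mKO/mdx libraries lay above the other 4, with a log2 fold change of 2.35 ± 0.38 against mdx (limma adjusted p = 0.00138) and 1.57 ± 0.38 against control (limma adjusted p = 0.0186). Against control the value was 0.88 without control replicate 2, and this call and that against mdx were lost without either Sirt6mKO/mdx library, the latter also without mdx replicate 2. Of the other members with microRNA genes none passed in any comparison; among them E130102H24Rik (miR-101a), Mir143hg (Carmn, next to miR-143 and miR-145a) and 2900076A07Rik (miR-1839) had values between -0.10 and 1.75.

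The table also lists the hairpins themselves, which in total RNA do not measure the mature microRNA. Reads that fell on more than 1 gene were left out by the counting. Mir29a was at 83 and 29 in control libraries, 7 and 5 in those of mdx, and 110 and 63 in those of Sirt6mKO/mdx, and fell by 2.86 in mdx (SE 0.62; limma adjusted p = 0.00558). It then rose by 3.60 ± 0.62 against mdx (limma adjusted p = 0.00223), where Gm27019 had 1.50 ± 0.63 (limma adjusted p = 0.154). Mir23a was at 60 and 40, 11 and 19, and 101 and 112, with -1.69 ± 0.49 in mdx (limma adjusted p = 0.0276) and 2.79 ± 0.49 in Sirt6mKO/mdx against mdx (limma adjusted p = 0.00268), where Gm26532 had 1.76 ± 0.68 (limma adjusted p = 0.121). The difference between hairpin and neighbouring transcript was not tested. Mirlet7a-1 was at 68 and 15, 32 and 19, and 84 and 91, and passed in no comparison.

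For 29 members the start lay within 2 kb of the start of a coding gene on the other strand, and 14 of these also lay over the coding gene. In mdx against control 9 of the 29 fell and 2 rose, and in Sirt6mKO/mdx against mdx 8 rose and 1 fell (6 and 3 with libraries scaled to equal sums). These are 31% and 27.6%, beside 26.4% and 17.8% of all members and 7.34% and 5.62% of all tested genes, and 8 of the 9 that fell and 6 of the 8 that rose had an mdx mean under 30 and were included only through the other libraries. For 28 pairs the coding gene was tested too. In mdx, 11 of these members passed, and the coding partner had the same sign in 9 of them and passed as well in 5. Of these members 9 passed in Sirt6mKO/mdx against mdx, with the same sign in 8 partners, of which 3 passed, and with equal sums 9 passed as well, with the same sign in 6 partners, of which 5 passed. In Sirt6mKO/mdx against control 3 members passed, all higher (10.3%, beside 6.98% of all members and 5.19% of all tested genes). The sign was the same in 2 partners, of which 0 passed. Over all 28 pairs, called or not, the sign was the same in 19 in mdx against control, in 20 in Sirt6mKO/mdx against mdx and in 13 in Sirt6mKO/mdx against control. With equal sums these counts were 19, 17 and 18, so that signs depended on the scaling.

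Gm17501 (chromosome 3, 145650312-145652093) starts 331 bases from Ccn1 (listed as Cyr61), which encodes a matricellular protein and is a target of serum response factor and YAP. Gm17501 was at 76 and 55 in control libraries, 25 and 16 in those of mdx, and 124 and 140 in those of Sirt6mKO/mdx, and the groups did not overlap. It fell by 1.64 ± 0.43 in mdx (limma adjusted p = 0.0181) and rose by 2.66 ± 0.43 against mdx (limma adjusted p = 0.00154). Ccn1 was at 5915 and 8535, 811 and 1434, and 5836 and 5246, with changes of -2.72 and 2.36. Both transcripts were thus lowest in both mdx libraries. The mdx call of Gm17501 was lost without control replicate 1, mdx replicate 2 or either Sirt6mKO/mdx library (-1.34 as the smallest change), and that against mdx without either Sirt6mKO/mdx library.

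Gm6225 and Gm6297 lie over their partners, so their reads may include those of the partner. Gm6225 was at 181 and 53 in control libraries, 5 and 5 in those of mdx, and 180 and 76 in those of Sirt6mKO/mdx, with changes of -4.05 ± 0.61 and 4.30 ± 0.61 (limma adjusted p = 0.0004 and 0.00049), the second lost without Sirt6mKO/mdx replicate 1. Its partner Crem, an inducible regulator of cAMP-responsive transcription, was at 817 and 521, 100 and 80, and 528 and 372. Gm6297 was at 147 and 45, 38 and 15, and 155 and 117, with changes of -1.72 ± 0.55 and 2.44 ± 0.55 (limma adjusted p = 0.0439 and 0.0131). Dnaja1, a co-chaperone of HSP70, changed by -2.12 and 2.01 beside it. Without control replicate 1 the mdx value of Gm6297 was -0.88, without mdx replicate 2 it was -1.08, and neither passed. Leaving out mdx replicate 1 or either Sirt6mKO/mdx library also ended that call, and mdx replicate 2 or either Sirt6mKO/mdx library ended the one against mdx.

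Gm16853 was at 124 and 59 in control libraries, 7 and 16 in those of mdx, and 48 and 30 in those of Sirt6mKO/mdx, a change of -2.89 ± 0.59 in mdx (limma adjusted p = 0.00383), beside -1.21 for Qtrt1, a subunit of the enzyme that puts queuosine into tRNA. 0610007N19Rik rose together with Sema5a, which encodes a guidance protein and was at 5 and 27, 62 and 61, and 42 and 41 (log2 fold change 2.27 in mdx). A330069E16Rik (chromosome 2, 91237146-91238352) was at 57 and 22 in control libraries, 188 and 115 in those of mdx, and 258 and 339 in those of Sirt6mKO/mdx. It rose by 2.02 ± 0.42 in mdx and by 3.02 ± 0.42 in Sirt6mKO/mdx against control (limma adjusted p = 0.0045 and 0.0004), while Ddb2, a sensor of ultraviolet DNA damage that starts 164 bases away, was between 42 and 74 in all libraries. Snhg1 rose by 1.38 against mdx where Slc3a2, an amino acid transporter subunit that starts 106 bases away, had -0.01. Gm9917 fell by 1.99 ± 0.59 in mdx (limma adjusted p = 0.0305) while Hyal2 had 1.30 and did not pass. The mdx values of Gm9917 were 10 and 47, and leaving out replicate 1 of mdx gave a change of -0.93, leaving out replicate 2 one of -3.06. The mdx calls of Gm16853 and Gm9917 were lost without control replicate 1 or mdx replicate 1, and that of Gm9917 also without control replicate 2 or either Sirt6mKO/mdx library. A330069E16Rik was not called in mdx without mdx replicate 1, nor in Sirt6mKO/mdx against control without Sirt6mKO/mdx replicate 2.

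The remaining members of this kind that passed were 1600020E01Rik (partner Pcbp1, an RNA-binding protein), 5031434O11Rik (Setd7, a lysine methyltransferase), Gm10069 (Fkbp4, a co-chaperone of HSP90), 4833418N02Rik (Ttc7), A530013C23Rik and A730056A06Rik. The first 3 fell in mdx, with log2 fold changes of -1.46, -2.53 and -2.17, and rose in Sirt6mKO/mdx against mdx, with 1.61, 2.58 and 1.97. Their partners had -0.71, -0.56 and -0.90, and 0.25, 0.03 and 0.24, and did not pass. With equal sums the value of 1600020E01Rik against mdx was 0.99 and not called. 4833418N02Rik was at 57 and 24, 33 and 17, and 113 and 127, and rose by 2.29 ± 0.52 against mdx (limma adjusted p = 0.0133). A730056A06Rik, next to Rgma, was at 33 and 46, 98 and 55, and 29 and 15. It was the only member to fall against mdx (-1.76 ± 0.53, limma adjusted p = 0.0497), a call lost in all fits without 1 library except that without control replicate 1. Except for Gm10069 in mdx, which needed mdx replicate 1 alone, each call in this paragraph was lost without at least 2 libraries, and the sign was kept throughout.

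**Figure D4:**
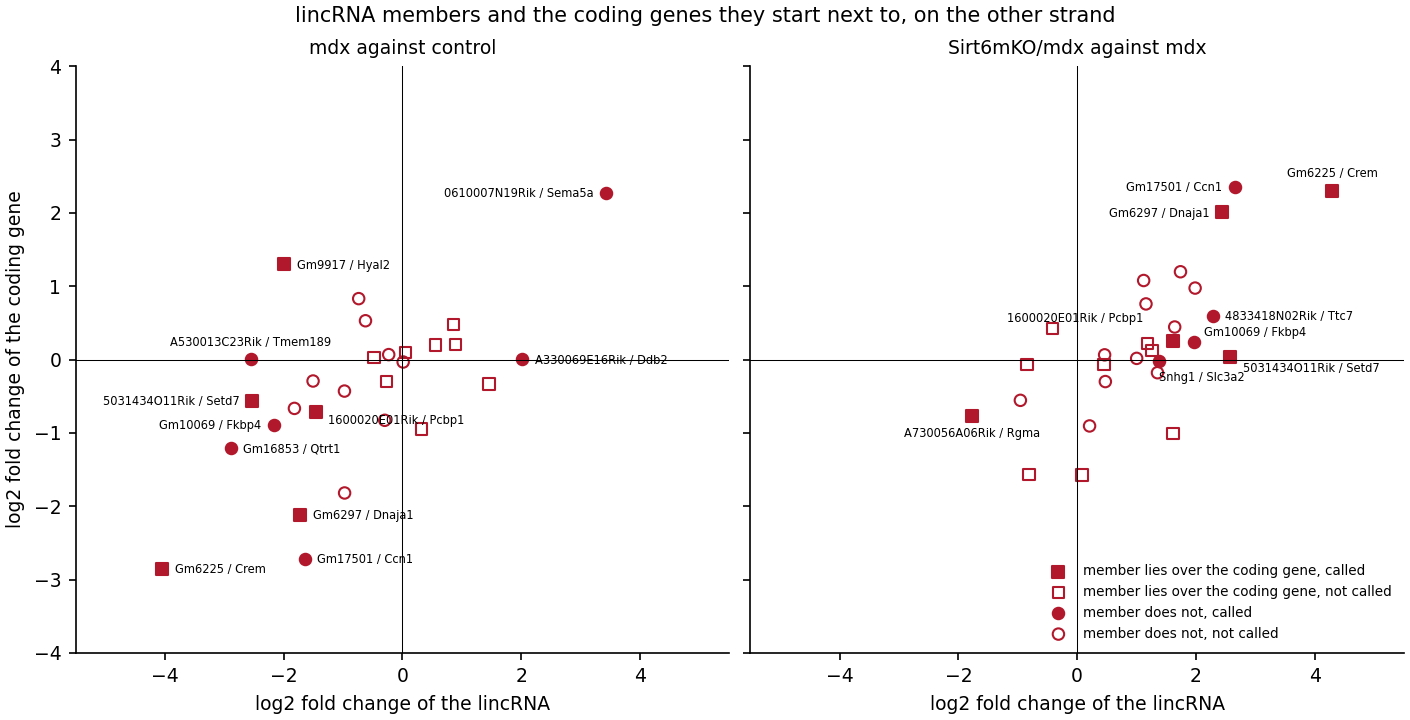
Log2 fold change of lincRNA members (x axis) and of the coding genes that start within 2 kb on the other strand (y axis), 28 pairs, in mdx against control (left) and Sirt6mKO/mdx against mdx (right); filled symbols passed the test and squares lie over the coding gene. Gm6225 and Crem, Gm6297 and Dnaja1, and Gm17501 and Ccn1 fell in mdx and rose against mdx, and A330069E16Rik rose in mdx with Ddb2 at 0.002.

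Promoter windows (250 bases before to 50 after a start, RefSeq, GRCm38.p6) were at hand for 57 members. The AP-1 site, TGANTCA on either strand, was in 6 of their 67 windows and in 7.81% of all 32851. The cAMP response element, TGACGTCA, was in 2 of the 67 and in 1.79% of all, and the SRF CArG box in 0 of the 67 and in 1.63% of all. A match describes the letters and is not a binding site. Windows are shown for A530013C23Rik, which lies 759 bases downstream of Cebpb and has an AP-1 match (capitals) in this window but no match in its other window, and for Gm17501, whose window faces Ccn1 and has no match.
A530013C23Rik, chr2:167690509-167690808, plus strand: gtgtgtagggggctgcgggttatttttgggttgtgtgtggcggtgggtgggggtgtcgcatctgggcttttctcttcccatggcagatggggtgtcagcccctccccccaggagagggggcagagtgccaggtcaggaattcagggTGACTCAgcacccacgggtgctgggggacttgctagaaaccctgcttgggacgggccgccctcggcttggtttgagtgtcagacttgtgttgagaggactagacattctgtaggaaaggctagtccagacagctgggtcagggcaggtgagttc
Gm17501, chr3:145649827-145650126, plus strand: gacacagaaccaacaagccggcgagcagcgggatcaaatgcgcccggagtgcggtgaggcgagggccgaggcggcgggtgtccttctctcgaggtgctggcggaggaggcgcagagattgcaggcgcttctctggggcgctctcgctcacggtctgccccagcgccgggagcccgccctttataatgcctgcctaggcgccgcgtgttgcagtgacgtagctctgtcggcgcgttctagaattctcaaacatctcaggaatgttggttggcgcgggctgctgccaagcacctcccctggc

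Beside Cebpb, a transcription factor gene induced in stress and injury, A530013C23Rik was at 261 and 58 in control libraries, 10 and 40 in those of mdx, and 99 and 43 in those of Sirt6mKO/mdx. Its change in mdx was -2.55 ± 0.70 (limma adjusted p = 0.0219), and it was -1.47 without control replicate 1 and -1.60 without mdx replicate 1, neither of which passed. The call was also lost without either Sirt6mKO/mdx library. Cebpb itself was at 292 and 343, 18 and 27, and 279 and 303. Beyond A530013C23Rik, after a gap of 98.52 kb, lies 1200007C13Rik (chromosome 2, 167827693-167833646, minus strand), the member with the largest change. It was at 1012 and 392 in control libraries, 41 and 19 in those of mdx, and 683 and 482 in those of Sirt6mKO/mdx. Both mdx libraries were at 41 or less and the other 4 at 392 or more. The log2 fold change was -4.44 ± 0.42 in mdx (limma adjusted p = 5.6e-06) and 4.31 ± 0.42 against mdx (limma adjusted p = 1.7e-05), and -0.13 between Sirt6mKO/mdx and control. No coding gene lies over it and its exons overlap no other gene.

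On chromosome 6, Gm27019, Gm13834 and Gm13833 lie between 31063092 and 31104646. Gm13833 was at 261 and 116 in control libraries, 8 and 14 in those of mdx, and 42 and 56 in those of Sirt6mKO/mdx, with changes of -3.91 ± 0.52 in mdx (limma adjusted p = 0.00013), 2.09 ± 0.52 against mdx (limma adjusted p = 0.0211) and -1.82 ± 0.52 against control (limma adjusted p = 0.0388). Gm13834 was at 124 and 32, 5 and 11, and 37 and 54, with -2.92 ± 0.68 and 2.43 ± 0.68 (limma adjusted p = 0.00859 and 0.0366). On chromosome 8, Gm26887 ends 11.25 kb from Gm26532. It was at 103 and 5 in control libraries, 12 and 2 in those of mdx, and 85 and 95 in those of Sirt6mKO/mdx, and rose by 3.86 ± 1.02 against mdx (limma adjusted p = 0.0303), while control replicate 2 lay within the range of mdx. The call of Gm13833 in mdx held without any 1 library, and that of Gm13834 in mdx was lost without control replicate 1 or mdx replicate 1. The calls of these 3 genes against mdx were lost without any 1 of the 4 libraries compared, and that of Gm13833 against control without any library but mdx replicate 1.

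In the imprinted Dlk1-Dio3 region of chromosome 12, whose non-coding RNAs are expressed from the maternal chromosome, 2 members lay 53.23 kb apart. B830012L14Rik (109695586-109702587) was at 569 and 376 in control libraries, 65 and 162 in those of mdx, and 54 and 171 in those of Sirt6mKO/mdx. It fell by 2.16 ± 0.49 in mdx and by 2.25 ± 0.49 in Sirt6mKO/mdx against control (limma adjusted p = 0.00728 and 0.0101), and the latter value was -1.43 without Sirt6mKO/mdx replicate 1. Gm26945 was at 482 and 363, 124 and 253, and 167 and 315, and its change in mdx of -1.23 ± 0.36 (limma adjusted p = 0.0298) was -0.72 without mdx replicate 1. In both genes replicate 1 was below replicate 2 in mdx and in Sirt6mKO/mdx. Mirg, left out of the members by name, was at 2385 and 1714, 458 and 607, and 594 and 1292, and Rtl1, a coding gene of the same region that is expressed from the paternal chromosome, at 949 and 855, 154 and 246, and 297 and 598. Neither mdx call of the members held without control replicate 1 or mdx replicate 1, and that of Gm26945 also not without control replicate 2 or Sirt6mKO/mdx replicate 2. The Sirt6mKO/mdx call of B830012L14Rik was lost without either control library too.

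Members of known function outside these groups were few. 1700020I14Rik (chromosome 2, 119594297-119607502), also named Cyrano, carries a site that directs the destruction of miR-7. It was at 403 and 633 in control libraries, 1365 and 1012 in those of mdx, and 679 and 707 in those of Sirt6mKO/mdx, above control in every other library, and rose by 1.22 ± 0.27 in mdx (limma adjusted p = 0.00701), a call lost without control replicate 1 or mdx replicate 1. Pvt1, transcribed next to Myc and able to modulate it, was at 394 and 273, 140 and 165, and 265 and 171, with a change of -1.10 ± 0.30 in mdx (limma adjusted p = 0.0219) that was not called without control replicate 1 or either mdx library (-0.84 as the smallest change). Trp53cor1 (lincRNA-p21), a p53 target next to Cdkn1a, was at 103 and 16, 27 and 78, and 70 and 47. Its libraries differed more within groups than between them, and its log2 fold changes were between 0.16 and 0.47 ± 0.71. Cdkn1a was at 952 and 531, 206 and 178, and 449 and 413. 1500011K16Rik, now annotated as the coding gene Mtln for a mitochondrial micropeptide, was between 58 and 116 in every library, with changes between 0.08 and 0.24 ± 0.42.

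4732419C18Rik (chromosome 8, 123744631-123754228) was higher in both mdx groups, at 47 and 37 in control libraries, 352 and 162 in those of mdx, and 283 and 197 in those of Sirt6mKO/mdx. It rose by 2.49 ± 0.38 in mdx and by 2.47 ± 0.38 in Sirt6mKO/mdx against control (limma adjusted p = 0.00042 and 0.00081), and mdx and Sirt6mKO/mdx overlapped. B230208H11Rik was at 92 and 37, 242 and 73, and 399 and 311, so that mdx overlapped control, and rose in Sirt6mKO/mdx against control by 2.57 ± 0.49 (limma adjusted p = 0.00482). Lower in both were Gm14616 (211 and 157, 80 and 51, 51 and 60) and Gm20645 (139 and 113, 28 and 37, 25 and 26), with changes of -1.50 and -1.93 in mdx and of -1.70 and -2.25 in Sirt6mKO/mdx against control. Gm15713, on the other strand of Zbtb20, was at 411 and 267, 145 and 196, and 125 and 97, and fell by 1.58 ± 0.31 in Sirt6mKO/mdx against control (limma adjusted p = 0.00582). Except for 4732419C18Rik in mdx, each of these calls was lost without at least 1 library, and in Sirt6mKO/mdx against control each without at least 1 of the Sirt6mKO/mdx libraries.

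Gm20645 lies inside Rel on the same strand, and Rel, which encodes an NF-kappaB subunit, was at 162 and 111 in control libraries, 30 and 40 in those of mdx, and 70 and 93 in those of Sirt6mKO/mdx. Over all 14 members that overlap a coding gene on the same strand, 2 fell and 0 rose in mdx (limma; 2 lower and 0 higher at an unadjusted p under 0.05), the other being Gdap10 within Nampt. Gdap10 changed by -2.05 where Nampt had 0.23. None (0 of the 14) passed in Sirt6mKO/mdx against mdx in limma, where 5.62% of all tested genes rose and 2.54% fell. At an unadjusted p under 0.05 in limma 1 was higher and 1 lower, and the median was -0.27. With equal sums 1 fell and the median was -0.88, beside 2932 falls and a median of -0.58 over all tested genes. In Sirt6mKO/mdx against control 1 fell, Gm20645 (7.14%, beside 4.65% of all members and 2.68% of all tested genes). At an unadjusted p under 0.05 in limma 6 were lower and 0 higher, and the median was -0.87. With equal sums 7 fell and the median was -1.46, beside 2693 falls and a median of -0.58 over all tested genes. The 55 members over no coding gene had 15 that fell and 4 that rose in mdx, with a median of -0.72 (9 of the 15 with an mdx mean under 30), and the 60 over a coding gene on the other strand only had 17 and 1, with a median of -0.85 (14 of the 17). The shares that fell in these 2 classes, 27.3% and 28.3%, are near the 26.4% of all members, that of the 14 on the same strand was 14.3%, and that of all tested genes 7.34%.

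Other members of the strongest changes had no named function. Gm26626, which overlaps exons of Runx1 on the other strand, was at 142 and 31 in control libraries, 5 and 7 in those of mdx, and 26 and 54 in those of Sirt6mKO/mdx, a change of -3.29 ± 0.72 in mdx (limma adjusted p = 0.00598) and of 2.48 ± 0.72 against mdx (limma adjusted p = 0.0434), which was 1.89 and not called with libraries scaled to equal sums. 5031415H12Rik was at 54 and 25, 7 and 6, and 73 and 78, with -2.34 ± 0.59 and 3.35 ± 0.59 (limma adjusted p = 0.0134 and 0.00264). A230028O05Rik was at 38 and 18, 10 and 7, and 50 and 67, and rose by 2.65 ± 0.62 against mdx (limma adjusted p = 0.0159). In these 3 genes both mdx libraries were below all others, at values that correspond to few reads. None of these calls held without either Sirt6mKO/mdx library in the comparison with mdx, and the mdx calls were lost without control replicate 1 or mdx replicate 1. Without either mdx library the calls of Gm26626 and A230028O05Rik against mdx were lost too. The mdx call of 5031415H12Rik was also lost without mdx replicate 2.

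Gm26656 and Gm16907 were among the 10 members of highest mean and passed in no comparison. Gm26656 was at 476 and 69 in control libraries, 574 and 315 in those of mdx, and 712 and 356 in those of Sirt6mKO/mdx, so that its 2 control libraries differed more than the groups. At the limit of the selection, Gm26767, Gm26908 and Gm5532 had a mean of 30.5 and were included, and Gm20732, Gm26743 and RP23-308M1.2 had means of 29.7, 29.5 and 29.3 and were not. Gm26908 was at 60 and 40, 5 and 7, and 45 and 26, and Gm20732, just outside, at 42 and 5, 7 and 7, and 56 and 61. Between a mean of 5 and 30 the table held 319 further autosomal lincRNA genes, of which 9 fell (2.82%) and 3 rose (0.94%) in mdx, with a median of -0.42, beside 7.34% and 6.89% of all tested genes. In Sirt6mKO/mdx against mdx 6 rose and 0 fell by limma (36 higher and 6 lower at an unadjusted p under 0.05), with a median of 0.64, and the 1.88% that rose stand beside 5.62% of all tested genes.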

How the data were processed

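Total RNA of FACS-sorted MuSCs was depleted of rRNA (RiboMinus) and made into Ion Total RNA-Seq libraries. Per the labels and the study's methods, the authors aligned trimmed reads with STAR (2.4.2a per the submitters' processing notes) to mm10/GRCm38, counted reads on exons with featureCounts (1.4.5-p1), leaving out reads on several genes or places, and normalised them with DESeq2 (1.6.0). The deposited values are rounded, normalised counts and were treated as a score, not as counts, since the rounding hides the reads. Size factors, and from them the reads per library, were estimated from the spacing of low values. Size factors bear on the precision: 1 read was worth up to 1.86 units, so single low values rest on few reads. Therefore limma (3.58.1, R 4.3.3) with a trended variance was fitted to log2(value + 1) of the 15915 genes with a mean of at least 5, all 6 libraries in 1 fit, groups from the labels, in place of the authors' DESeq2 test. Fold changes are on that scale, which understates changes of low genes. P-values are two-sided and adjusted over all tested genes by Benjamini-Hochberg; a call needs an adjusted p of at most 0.05 and a 2-fold change. The table held no columns of the authors' own comparisons and 0 columns of other samples. The fit was tested on simulated data.

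Exons, strands and neighbours come from GENCODE M21 (GRCm38): 119 members matched by ID, 1 by symbol and position, and 9 by position only. Small RNA and promoter sequences are from RefSeq (GRCm38.p6). Named members are the 10 of highest mean; per comparison the 8 highest and 8 lowest called with groups that do not overlap; listed snoRNA hosts, microRNA hosts, described lncRNAs and micropeptide genes; the 3 on either side of the limit; called members next to a coding start; and the 5 highest per kb. A330023F24Rik, Gm27028, E130102H24Rik, 2900076A07Rik, Gm26835, Gm17275 and Gdap10 fall outside that rule, as does the promoter of A530013C23Rik, and were chosen after their values were seen. The members and lists were chosen with earlier results of these data known. Replicate numbers do not pair the libraries.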

Additional observations from a re-analysis of the deposited data

How the results depend on the processing

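Over the alternatives to the processing, 0 of the named members' calls changed sign. Of the 39, 24 and 15 members called in mdx against control, Sirt6mKO/mdx against mdx and Sirt6mKO/mdx against control, 14, 3 and 2 were called without a minimum mean. With 1 prior variance for all genes in limma the counts were 10, 0 and 0, with 48, 37 and 28 members at an unadjusted p under 0.05. With libraries scaled to equal sums 34 members were called in Sirt6mKO/mdx against control, most of them lower, and of all genes 479 were higher and 2932 lower in Sirt6mKO/mdx against mdx, beside 895 and 405. All-gene counts also fell without a minimum mean (417 higher and 572 lower, 154 and 14, 169 and 52) and with 1 prior variance (181 and 360, 0 and 0, 65 and 22), beside 1097 and 1168 in mdx against control and 826 and 427 in Sirt6mKO/mdx against control. With equal sums the latter were 455 and 2693. The cause was not tested. Leaving out 1 library gave 13 to 43, 3 to 28 and 3 to 17 members, the lowest without control replicate 1 in the first, without Sirt6mKO/mdx replicate 1 in the second and without either Sirt6mKO/mdx library in the last. In these lowest fits, fewer of all tested genes were called than with all libraries. Other pseudocounts, a minimum mean of 30, upper quartile scaling and a robust prior kept the counts within 1.5 times. Depth limits single low values, since 1 read was worth up to 1.86 units.

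The replicate numbers were not taken as pairs: deviations of same-numbered libraries correlated at -0.13 between control and mdx, 0.12 between control and Sirt6mKO/mdx and 0.0093 between mdx and Sirt6mKO/mdx. With the replicate number as a block, 41, 27 and 19 members were called, and with the control numbers swapped, a pairing chosen after seeing the data, 38, 27 and 17.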
